A study of Mus musculus with 22 samples.

Results

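The regions described here were the 8544 repeat-masked tiles among the 114689 autosomal tiles of 100 bp that could be analysed in developing mouse forebrain. A tile was called masked when all of its 100 bases were written in lower case in the RefSeq FASTA of GRCm38, where lower case marks interspersed and simple repeats, and it was analysed when at least 2 of its CpGs were covered by 10 or more reads of 1 strand, in no fewer than 5 embryos of each condition. Of the other tiles, 77679 had no lower-case base and 28466 were partly masked. The mask looked at sequence alone, so no methylation value entered the choice of tiles.

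Methylation had been measured by rapid reduced representation bisulfite sequencing (rRRBS), in which MspI cuts DNA at CCGG, bisulfite turns unmethylated cytosines into uracil and the fragment ends are sequenced. The forebrains came from wild-type C57BL/6 embryos collected at E10.5, with 1 embryo per library. Dams of the 6 Ctrl samples had received saline, and dams of the 16 EtOH-exposed samples 2 subcutaneous injections of 2.5 g/kg ethanol at E2.5, given 2 h apart. The study drew the embryos from 3 control and 6 ethanol litters, at random among embryos of similar size that showed no visible defects. It used as many males as females in each condition. The labels gave neither litter nor sex, so embryos were compared as independent samples although some shared a litter. No expression was measured, so the tissue label was not checked against marker genes.

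Transposable elements fill a large part of the mouse genome. Most of their CpGs are kept methylated in somatic cells, which helps to hold their transcription and movement in check, and methylated CpGs are lost over evolution because deamination turns them into TpG or CpA. CpG islands at gene starts, in contrast, are usually free of both methylation and repeats. The pre-implantation embryo, the stage of the exposure, is when most of this methylation is erased before it is laid down again around implantation.

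The libraries differed in depth. Summed over all CpGs, the files held 68126469 to 132488556 calls per Ctrl sample and 89179413 to 216223892 per EtOH-exposed sample. A value was available at 4652 to 8532 of the masked tiles in each Ctrl sample and at 6057 to 8348 in each EtOH-exposed sample, with a median of 114 to 405 and 116 to 420 reads per tile, where a read counts once for every CpG it covers. All 22 samples had a value at 1121 masked and 28723 unmasked tiles, and values per embryo were taken over these. The level at 39440 unmethylated tiles, which includes unconverted cytosines, ran from 0.672 to 1.52% in Ctrl and from 0.260 to 2.54% in EtOH-exposed samples. With a masked tile of 231 reads at 90% methylation, the 95% Wilson interval runs from 85.5 to 93.3%. It covers the error of counting only if all calls are independent. Calls at several CpGs of 1 read are not, and masked tiles had a median of 53.2 reads per CpG. PCR copies could also not be told from separate molecules, so the interval is too narrow.

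Masked tiles were almost uniformly methylated in control forebrain. Their median control level was 93.7%, with quartiles of 91.0 and 95.3%, against a median of 62.8% in partly masked tiles and 1.61% in unmasked tiles. At 80% or more were 8209 masked tiles (96.1%), compared with 27.2% of the unmasked tiles. Between 10 and 80% lay 320 masked tiles, and 15 (0.176%) lay under 10%, where 62% of the unmasked tiles were found.

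**Figure D1:**
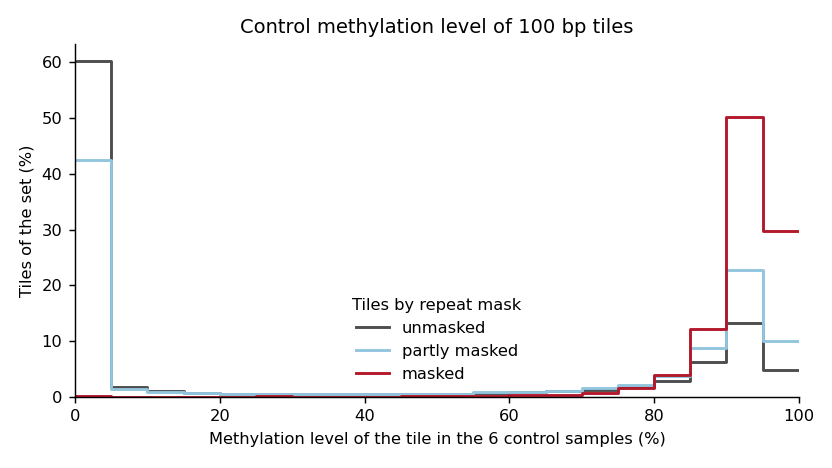
Share of tiles (y axis, % of each set) by methylation level in the 6 Ctrl samples (x axis, %, in steps of 5 percentage points) for masked, partly masked and unmasked tiles. Of the masked tiles, 50.2% lay between 90 and 95% and 29.8% between 95 and 100%, while most unmasked tiles lay under 5%.

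The level rose with the share of the tile that was masked and levelled off above 50 lower-case bases. Tiles with 26 to 50 lower-case bases had a median control level of 24.7%, those with 51 to 75 had 91.8% and those with 76 to 89 had 93.4%. Just outside the limit, the 158 tiles with 98 or 99 lower-case bases had a median of 93.3%, so the level changed little across the limit itself.

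Masked tiles lay in other parts of the genome than the tiles this assay mostly reads. Intergenic sequence held 6094 of them (71.3%) and introns 2321 (27.2%), and only 70 lay in promoters (1000 bp before to 100 bp after a transcription start site, TSS), 58 in untranslated or non-coding exons and 1 in a coding exon. Of the unmasked tiles, 34.2% lay in promoters and 18.6% in coding exons. The median distance to the nearest TSS was 42023 bp for masked and 522 bp for unmasked tiles. Per chromosome, the masked share of analysed tiles ran from 3.45% on chromosome 11 to 12.1% on chromosome 1.

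Most masked sequences were present in the genome many times. The median 31-base word of a masked tile occurred 59 times on either strand of chromosomes 1 to 19, X and Y, and in 7765 of the 8544 tiles (90.9%) the median word occurred more than once, against 1.47% of the unmasked tiles. Reads from such copies may be assigned to the wrong one, so the level of a masked tile can be a mixture of copies. The 779 masked tiles with a median word found once had a mean control level of 91.0% ± 0.82 (SD, n = 6). Other words of these tiles may still be repeated. The level was 91.6% ± 0.73 (SD, n = 6) for the 6124 tiles whose median word occurred over 10 times.

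Groups of related sequence were built from the masked tiles by joining tiles with at least 80% identity over at least 80 bases. Tiles were chained through shared matches, so 2 tiles of a family need not resemble each other. This gave 431 families, 346 of them single tiles, and 21 families with 5 or more tiles held 8039 tiles. Family 1 alone held 5060 tiles (59.2%), families 2 and 3 held 913 and 870, family 4 held 564 and family 5 held 144. The mask gives no family names. RefSeq annotates a copy of B1_Mus2, a short interspersed element of rodents, and 553 masked tiles aligned to it, 544 of which were in family 4. Representative tiles are printed below as the plus strand of GRCm38 from RefSeq, in lower case with every CpG in capitals. The first pair shows family 1, by its most deeply read tile (chr3:22730401-22730500, control level 96.5%) and by a tile that was called as a decreased differentially methylated region (chr11:11287901-11288000, in an intron of Zpbp). The others set unmethylated masked tiles of families 4 and 7 beside their most similar copy that was at 90% or more in controls and measured in every sample.
Family 1, most reads: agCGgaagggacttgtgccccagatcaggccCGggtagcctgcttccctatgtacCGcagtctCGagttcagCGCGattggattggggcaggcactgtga
Family 1, decreased: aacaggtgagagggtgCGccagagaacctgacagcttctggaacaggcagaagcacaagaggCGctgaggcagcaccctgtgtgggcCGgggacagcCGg
Snrnp70, unmethylated: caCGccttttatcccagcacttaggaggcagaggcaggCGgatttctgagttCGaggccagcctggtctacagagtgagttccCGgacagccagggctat
Gm12505, methylated: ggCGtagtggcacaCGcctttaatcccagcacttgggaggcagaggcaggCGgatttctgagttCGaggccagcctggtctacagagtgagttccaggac
Snx5, unmethylated: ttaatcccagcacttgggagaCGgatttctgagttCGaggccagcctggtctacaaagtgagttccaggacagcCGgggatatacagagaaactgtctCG
Gm20139, methylated: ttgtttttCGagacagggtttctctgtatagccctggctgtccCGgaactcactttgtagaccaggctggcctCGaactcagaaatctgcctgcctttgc
Tmem231, unmethylated: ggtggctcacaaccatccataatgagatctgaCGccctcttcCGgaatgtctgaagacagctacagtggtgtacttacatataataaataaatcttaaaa
Wdr66, methylated: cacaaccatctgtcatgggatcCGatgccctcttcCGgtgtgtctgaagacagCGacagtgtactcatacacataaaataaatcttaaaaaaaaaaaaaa

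In unmasked tiles, methylation fell steeply as CpGs became denser, and in masked tiles it did not. At 2 CpGs per tile, the mean control level was 89.7% ± 1.0 (SD, n = 6) in the 1131 masked tiles and 71.4% ± 0.51 (SD, n = 6) in the unmasked tiles. At 5 or more CpGs it was 92.2% ± 0.68 (SD, n = 6) in 4724 masked tiles and 14.9% ± 0.55 (SD, n = 6) in 52787 unmasked tiles. Even at 7 or more CpGs, a density at which 92.2% of the unmasked tiles were under 10%, the 2190 masked tiles had a mean of 92% ± 0.79 (SD, n = 6), and 0.274% of them were under 10%. In each of the 4 classes of CpG number, every Ctrl sample had a higher level in masked than in unmasked tiles.

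Read depth moved with the level of unmasked tiles but hardly with that of masked tiles. The quartiles of the median reads per masked tile were 152, 231 and 354. In the quartile with fewest reads, masked tiles had a mean control level of 91.6% ± 0.72 and unmasked tiles of the same depth 70.5% ± 2.7 (SD, n = 6 for both). In the quartile with most reads, the means were 91.2% ± 0.73 and 14.5% ± 0.59 (SD, n = 6 for both), and this quartile held 63.1% of the unmasked tiles.

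Distance to a TSS was the class in which masked tiles differed most among themselves. The 120 masked tiles under 1 kb from a TSS had a mean control level of 78.8% ± 2.2 (SD, n = 6), ranging from 74.6 to 80.8% over the Ctrl samples. At 1 to 10 kb the mean was 91.0% ± 0.68, at 10 to 100 kb 91.9% ± 0.69 and over 100 kb 92.1% ± 0.78 (SD, n = 6 for each). All classes were measured in the same embryos, so these SDs do not give the spread of a difference between classes. Such differences were not tested. In the same classes, unmasked tiles rose from 5.91% ± 0.36 to 77.9% ± 0.92 (SD, n = 6 for both). Most masked tiles near a TSS were nevertheless methylated, with 94 of the 120 at 80% or more, 19 at 10 to 80% and 7 under 10%.

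**Figure D2:**
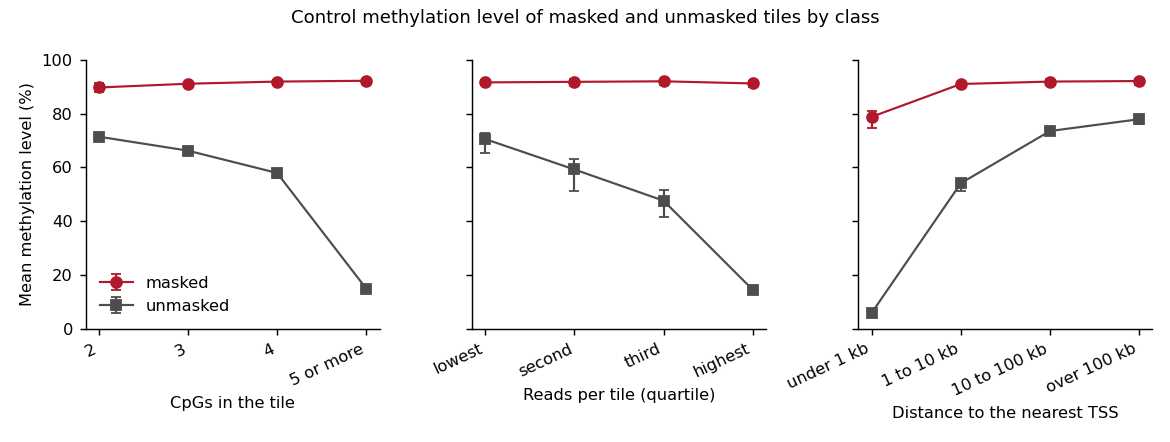
Mean methylation level (y axis, %) of masked tiles (circles) and unmasked tiles (squares) in classes of CpG number, reads per tile (quartiles of the masked tiles) and distance to the nearest TSS; points are means of the 6 Ctrl samples and bars run from the lowest to the highest of them. Masked tiles stayed near 90% in every class except under 1 kb from a TSS, where the mean was 78.8%.

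Among the methylated tiles near a TSS, the most deeply read was at Vmn1r65, a vomeronasal receptor gene, 410 bp from the TSS. Its level ran from 84.8 to 92.6% with a median of 88.4% in Ctrl samples and from 87.0 to 93.0% with a median of 89.6% in EtOH-exposed samples, and the groups overlapped. A family 1 tile 813 bp from the TSS of Pcca, which encodes a subunit of propionyl-CoA carboxylase, was at 89.8 to 93.0% (median 91.3%) in Ctrl and 80.1 to 94.0% (median 90.1%) in the EtOH group. Those near Gm33539, Gm51786 and Mir8117 had control levels of 96.3, 93.9 and 91.8%.

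The families differed in how they behaved near a TSS. All 34 family 1 tiles and all 11 family 2 tiles under 1 kb were at 80% or more. Of the 39 family 4 tiles in that class, 23 (59.0%) were at 80% or more, 12 were at 10 to 80% and 4 were under 10%, and the mean of these 39 tiles ran from 62.7 to 67.4% over the Ctrl samples. Of the 9 family 3 tiles, 6 were at 80% or more and 3 at 10 to 80%, and of the 27 tiles in the remaining families and singles 20 (74.1%) were at 80% or more. Farther out, 96.0% of the family 4 tiles at 1 to 10 kb and 98.9% of those at 10 to 100 kb were at 80% or more. The B1_Mus2 tiles showed the same order, with 64.9% at 80% or more under 1 kb and 98.9% at 10 to 100 kb. Among the 5 largest families, family 4 was the nearest to genes, with a median distance of 11143 bp against 52583 bp in family 1.

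Compared with unmasked tiles at the same control level, masked tiles at 50% or more held more CpGs and lay farther from genes. Below 50% this did not hold throughout. At 10 to 50% the median was 4 CpGs in both sets and the median distance 2583 bp in the 31 masked against 4380 bp in the unmasked tiles, although 38.7% against 33.9% lay over 10 kb away. Under 10% masked tiles had a median of 4 CpGs against 10 but lay farther from a TSS, at 1188 against 184 bp. At 95 to 100% in controls, the 2547 masked tiles had a median of 6 CpGs and the 3774 unmasked tiles 4, and 69.3% against 47.3% had 5 or more. At this level, masked tiles held 2.41 TpG or CpA dinucleotides per CpG and unmasked tiles 3.30. At 80 to 90% the ratios were 3.29 and 4.18. Below 50% the order was turned, with 2.25 in masked and 1.16 in unmasked tiles under 10%, and 3.45 and 2.88 at 10 to 50%. It was also turned over all levels, with 2.84 in masked and 1.68 in unmasked tiles, most of which were unmethylated.

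The median distance to a TSS at 95 to 100% was 49785 bp for masked and 12381 bp for unmasked tiles, and 86.4% and 57.0% lay over 10 kb away. Reads per CpG were fewer in masked tiles of this level, with a median of 47.2 against 61.5. The opposite was seen under 10%, where the 15 masked tiles had a median of 147 reads per CpG and the unmasked tiles 108. Tiles are windows that can share an element or a fragment, so these differences between sets of tiles are given without a test.

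The spread between control embryos was set beside what counting gives when every CpG call is taken as independent. Calls at several CpGs of 1 read are not, so the counting values are too low. How much of the spread was counting can therefore not be told. At 95 to 100%, the median SD over the Ctrl samples was 1.71 percentage points in masked and 1.62 in unmasked tiles, and counting in this way gave 1.49 and 1.48. At 50 to 80%, the median SDs were also alike, at 5.30 points in masked and 5.32 in unmasked tiles, but 52 of the 289 masked tiles (18%) and 9.77% of the unmasked tiles had an SD of 10 points or more between control embryos, and counting gave medians of 3.63 and 3.8. The median copy number of these 289 tiles was 182, against 1 for the unmasked tiles, and its part in the spread was not tested.

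The 15 masked tiles under 10% in controls fell into groups by sequence. They comprised 4 tiles of family 4, 6 tiles at 3 loci that aligned with one another and 5 others, and 12 of the 15 were measured in all 22 samples. Across those 12, no embryo was above 10.7%. All 15 together had a median of 4 CpGs, a median distance to a TSS of 1188 bp and a median of 590 reads.

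The 4 exceptions of family 4 all lay under 1 kb from a TSS. The tile at Snrnp70, which encodes a protein of the U1 small nuclear ribonucleoprotein, lay at chr7:45396101-45396200, 359 bp from the TSS. It was at 1.80 to 3.38% (median 2.36%) in Ctrl and 0.870 to 4.15% (median 1.95%) in the EtOH group. A tile in the intron of Snx5, a sorting nexin gene, at chr2:144269501-144269600 was at 0 to 1.84% (median 1.13%) and 0.258 to 3.25% (median 0.745%). At Srrm2, a splicing factor gene, the tile at chr17:23804301-23804400 was at 3.30 to 5.83% (median 5.68%) and 2.85 to 8.79% (median 4.81%). The last, at chr7:28373201-28373300, lay 202 bp from the isoleucine tRNA gene n-TIaat16 and was at 1.24 to 3.70% (median 1.88%) and 0.423 to 4.37% (median 1.67%). In all 4 tiles, the ranges of the conditions overlapped.

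Similar sequences were methylated elsewhere. The Snrnp70 tile aligned to 526 other masked tiles over at least 50 bases at 80% identity or more, and their median control level was 93.2%, with 499 at 80% or more. Its closest methylated copy, printed above, matched it at 96.6% over 88 bases, with 3 mismatched or gapped positions. That copy lay in intergenic sequence at chr4:55429601-55429700, 10759 bp from the TSS of Gm12505, and was at 87.3 to 95.7% (median 94.9%) in Ctrl and 75 to 95.2% (median 93.0%) in the EtOH group. The Snx5 tile had 411 such relatives with a median of 93.3%. Its closest methylated copy at chr10:19117801-19117900, on the opposite strand and 23849 bp from a TSS, matched at 90.8% over 87 bases and was at 87.4 to 95.1% (median 91.3%) in Ctrl samples. A family 7 tile 188 bp from the TSS of Tmem231, a transition zone gene of the primary cilium, was at 0.699 to 3.31% (median 2.16%) in Ctrl samples, and its closest methylated copy, in an intron of Wdr66 at chr5:123262301-123262400, was at 91.3 to 97.1% (median 96.0%). The Tmem231 tile and this copy matched at 82.1% over 95 bases. For the n-TIaat16 and Srrm2 tiles, the closest methylated copies matched at 85.7% over 63 and 85.9% over 85 bases.

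The 6 tiles that aligned with one another formed pairs of adjacent tiles 14060 and 14160 bp from Usp10 on chromosome 8 (119896101 to 119896300), in an intron of Camk2b on chromosome 11 (6006401 to 6006600) and at the start of Pik3c3 on chromosome 18 (30267301 to 30267500). Camk2b encodes a calcium/calmodulin-dependent kinase subunit, Usp10 a deubiquitinase and Pik3c3 a class III phosphoinositide kinase. A Camk2b and a Pik3c3 tile aligned at 96.0% over 99 bases, and each Usp10 tile matched a Pik3c3 tile at 100% over 52 bases on the opposite strand. The Usp10 tile with 11 CpGs, the most of any exception, was at 0 to 6.11% (median 0.755%) in Ctrl and 0.535 to 8.49% (median 2.32%) in the EtOH group. Its neighbour with 9 CpGs was at 1.16 to 2.79% (median 1.53%) and 0.251 to 7.34% (median 1.64%). The Pik3c3 tile 18 bp from the TSS was at 1.35 to 3.8% (median 1.72%) and 0.219 to 7.41% (median 2.23%). Among these loci, the highest control level was at the Camk2b tile starting at 6006501, with 3.71 to 10% (median 5.51%) in Ctrl and 0.956 to 10.7% (median 2.45%) in the EtOH group. These sequences had few relatives among the masked tiles. The Usp10 tile with 11 CpGs aligned to 3 others over at least 50 bases, all under 10%, while the neighbouring Usp10 tile aligned to 2, of which 1 was under 10%, and the Camk2b tile starting at 6006401 to 2, of which 1 was under 10% and 1 at 80% or more.

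The other exceptions besides the Tmem231 tile had at most 2 similar masked tiles each. They were a tile of GA repeats in the intron of Siah2, a ubiquitin ligase gene, 1188 bp from the TSS at chr3:58691101-58691200, with a control level of 2.64%, an intergenic tile 58707 bp from Gm26501 at 3.37%, and intronic tiles of Asb18 and Gm33655 at 4.06 and 1.82%. The Gm26501 tile was the farthest from a TSS, and it was at 1.56 to 4.28% (median 3.57%) in Ctrl and 0.850 to 7.13% (median 2.09%) in the EtOH group.

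The surroundings of the exceptions were mostly unmethylated as well. Analysed tiles that were not fully masked lay within 1 kb of 11 of the 15, and in 10 of these 11 their mean control level was under 10%. Of the 8209 masked tiles at 80% or more, 1778 had such a neighbour, and in 9 (0.506%) it was under 10%. Turned around, 31 masked tiles lay within 1 kb of tiles under 10% on average, and 10 of them were under 10% themselves and 9 at 80% or more. Among the 1766 masked tiles beside tiles at 80% or more, none was under 10%. Tiles less than a fragment apart may be read on the same molecules, so their levels are not independent.

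Imprinted genes were searched as loci with methylation on 1 parental allele, and none of the 19 listed had a masked tile within 5 kb for which its TSS was the nearest.

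Whether the early exposure changed the methylation of masked tiles was then asked of the set. The mean level over the 1121 masked tiles measured in every sample ran from 88.8 to 90% (median 89.7%) in Ctrl and from 84.7 to 90.2% (median 88.9%) in the EtOH group. EtOH-exposed samples 4, 5, 6 and 14 were at 85.3, 84.7, 85.3 and 85.6%, 8 of the 16 lay below the lowest Ctrl sample, 7 within the Ctrl range and 1 above it. On average the level was 89.6% ± 0.48 (SD, n = 6) in Ctrl and 88.2% ± 1.93 (SD, n = 16), a difference of −1.45 percentage points that did not pass the test (two-sided exact permutation, 74613 splits, p = 0.0851, adjusted over 5 measures 0.213). Over every analysed masked tile, taken as deviations from the Ctrl mean of each tile, the difference was −1.47 points (permutation over all splits, p = 0.0443, unadjusted). Ctrl samples were centred on themselves there, so this p is approximate and can be too small. The share of the 1121 tiles at 90% or more was 71.1% ± 4.18 (SD, n = 6) in Ctrl and 62.9% ± 10.75 (SD, n = 16) in the EtOH group.

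Unmasked tiles matched for control level moved by as much in the same embryos. When unmasked tiles were weighted to the control levels of the masked tiles, their level ran from 88.8 to 90.3% in Ctrl and from 84.2 to 90.1% in the EtOH group, with a difference of −1.57 points. The masked minus the matched unmasked level was 0.0592 ± 0.26 (SD, n = 6) in Ctrl and 0.180 ± 0.29 percentage points (SD, n = 16) in the EtOH group. This difference of 0.12 points did not pass the test (two-sided exact permutation, p = 0.378, adjusted 0.473). Of the 16 exposed embryos, 10 lay within the Ctrl range and 6 above it. Its size depended on the samples and tiles used. The difference was 0.036 without Ctrl sample 2, 0.19 without Ctrl sample 5 and 0.35 over every analysed tile, taken as deviations from Ctrl means. Matching also for CpG number, read depth or distance to a TSS gave differences of 0.13 to 0.19 points. With the control level from odd-numbered Ctrl samples and the change against even-numbered ones, it was 0.19 points. The sign changed in tiles whose median word occurred once (−0.17) and with CpGs of CCGG sites left out (−0.20), and neither value passed the test.

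**Figure D3:**
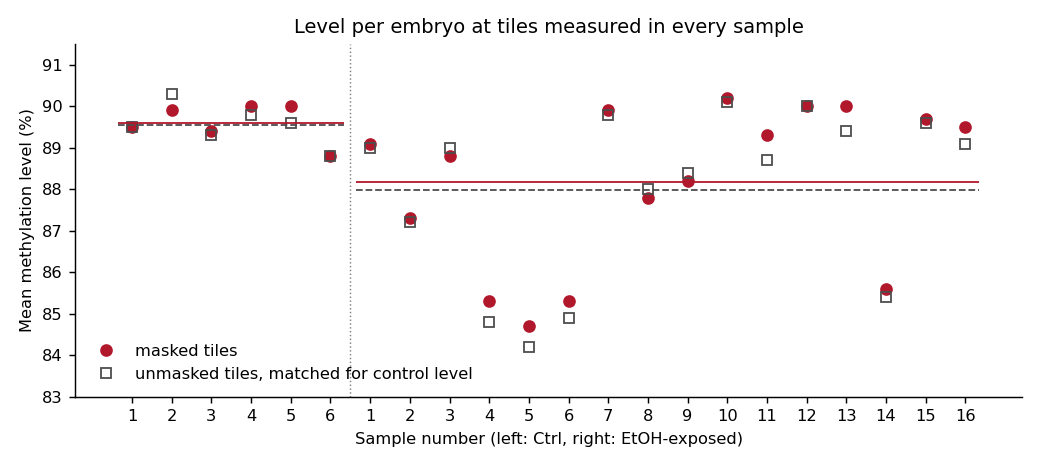
Mean methylation level (y axis, %, not starting at 0) of each embryo over masked tiles (filled circles) and over unmasked tiles weighted to the same control levels (open squares), at tiles measured in all 22 samples; lines are group means (solid, masked; dashed, unmasked). EtOH-exposed samples 4, 5, 6 and 14 lay lowest for both kinds of tile, at 84.7 to 85.6% for masked tiles.

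The spread between embryos was compared next, and its difference did not pass after adjustment. Measured from the group median, the distance was 0.369 ± 0.28 percentage points (SD, n = 6) in Ctrl and 1.54 ± 1.35 (SD, n = 16) in the EtOH group (two-sided permutation over all splits, p = 0.0421, adjusted over 5 measures 0.210). It was above the highest Ctrl value in 9 of the 16. Measured from the group mean instead, the difference was 1.25 points (p = 0.00595 by permutation over all splits, unadjusted). Distances from a centre of 6 values tend to be smaller than from a centre of 16. The p-values of the spread are therefore approximate. The matched unmasked level had a similar spread, with an SD of 0.50 in Ctrl and 2.04 in the EtOH group. Without samples 4, 5 and 6, which also had the highest level at unmethylated tiles (2.41 to 2.54%), the difference of 1.17 points became 0.60 (p = 0.160). Within the library group of all 6 Ctrl samples and EtOH-exposed samples 7, 8, 10, 11, 13, 15 and 16, formed by the level at unmethylated tiles, it was 0.11 (p = 0.843) and the difference in masked level was −0.14 percentage points (permutation over all splits, p = 0.759 for the latter). The other EtOH-exposed samples had no control in their library groups, so there library and exposure cannot be told apart.

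Within the EtOH group, the share of reads in masked tiles moved with the level. Of all reads in analysed tiles, 2.38 to 4.94% lay in masked tiles in Ctrl and 1.05 to 4.49% in EtOH-exposed samples. Ctrl sample 2 had the smallest control share, 2.38%, at a level of 89.9%, and Ctrl sample 6 had 4.80% at 88.8%. The 8 EtOH-exposed samples with a share of 1.05 to 1.97%, which were samples 2, 3, 4, 5, 6, 8, 9 and 14, had masked levels of 84.7 to 88.8% (median 86.4%). The 8 with a share of 2.33 to 4.49% had levels of 89.1 to 90.2% (median 89.8%), so these ranges did not overlap, with a limit of 2% that was set after the values had been seen. The matched unmasked level was 84.2 to 89% and 88.7 to 90.1% in the same samples. The part of read share in the difference between conditions was not tested. Against level-matched unmasked tiles, the log2 ratio of reads per masked tile was −0.11 ± 0.23 (SD, n = 6) in Ctrl and −0.30 ± 0.27 (SD, n = 16) in the EtOH group, a difference that did not pass (p = 0.136 by the exact permutation test, adjusted 0.227). Against unmethylated unmasked tiles, the log2 ratio was −1.18 ± 0.53 (SD, n = 6) and −2.02 ± 0.77 (SD, n = 16), and 8 of the 16 exposed embryos lay below the lowest Ctrl sample (exact permutation test, p = 0.0243, not among the 5 measures adjusted together).

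**Figure D4:**
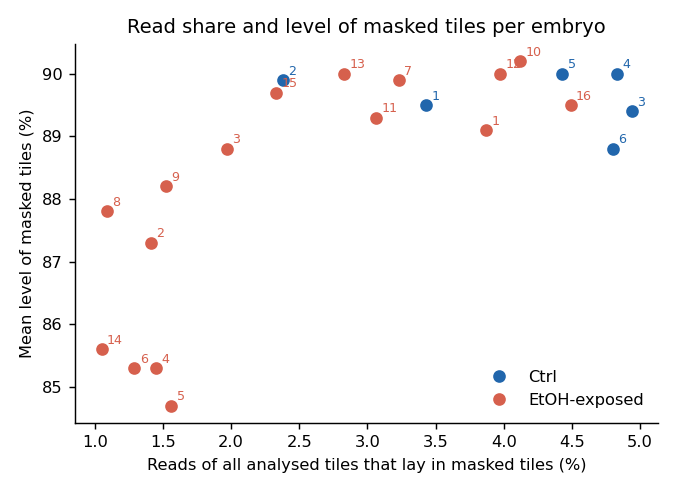
Mean methylation level of masked tiles (y axis, %, not starting at 0) against the share of reads of all analysed tiles that lay in masked tiles (x axis, %), with 1 point per embryo, its sample number beside it. EtOH-exposed samples with shares of 1.05 to 1.97% had levels of 84.7 to 88.8%, and those with 2.33 to 4.49% had levels of 89.1 to 90.2%.

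The change was tested in 19 classes of masked tiles, which divide the same 1121 tiles of the same embryos in 5 ways, so their directions are not independent. The mean was lower in the EtOH group in every class. None passed the test after adjustment (two-sided exact permutation, smallest adjusted p = 0.126). By CpG number, the differences were −1.89, −1.23 and −1.17 percentage points at 2, 3 and 4 CpGs and −1.48 at 5 or more. By depth, they were −2.51 in the 44 tiles of the quartile with fewest reads and −1.26 in the 567 tiles of the quartile with most. By distance, they were −1.95 under 1 kb (26 tiles) and −1.14 over 100 kb (309 tiles). Tiles whose median word occurred once changed by −1.71 and those over 10 times by −1.44.

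Classes of control level were cut on the same Ctrl samples that form 1 side of the comparison. Their differences carry that selection and are a description, and the same holds for the unmethylated tiles described next. By control level, the largest difference was at 10 to 50%, where the 10 masked tiles were at 38.7% ± 3.34 (SD, n = 6) in Ctrl and 33.4% ± 4.24 (SD, n = 16) in the EtOH group (exact permutation test, p = 0.0124, adjusted 0.126). At 50 to 80%, masked tiles changed by −1.59 points and unmasked tiles of the same levels by −4.80. The difference between these changes was 3.21 points (exact permutation test, p = 0.0265, adjusted over the 19 classes 0.168) and did not pass after adjustment.

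The 12 unmethylated masked tiles measured in every sample showed no detectable change. Their mean level was 2.04 to 3.56% (median 2.77%) in Ctrl and 1.10 to 4.17% (median 2.34%) in the EtOH group. This averaged 2.78% ± 0.58 (SD, n = 6) in Ctrl and 2.49% ± 0.99 in the EtOH group (SD, n = 16; two-sided exact permutation, p = 0.51, adjusted 0.51), and 9 of the 16 exposed embryos lay within the Ctrl range. The 22261 unmasked tiles of this kind were at 1.34% ± 0.45 (SD, n = 6) and 1.36% ± 0.82 (SD, n = 16).

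The 5 largest families moved in the same direction. Family 4, with its B1_Mus2 tiles, was at 86.4% ± 0.61 (SD, n = 6) in Ctrl and 84.4% ± 2.44 (SD, n = 16) in the EtOH group over 102 tiles, and 11 of the 16 exposed embryos lay below the lowest Ctrl sample (exact permutation test, p = 0.0468, adjusted over 9 families 0.233). Family 1 was at 89.8% ± 0.63 and 88.1% ± 2.32 over 494 tiles, a difference of −1.72 points. Family 2 changed by −0.57, family 3 by −1.29 and family 5, the most methylated at 95.9% ± 0.77 in controls, by −0.75 points. No family passed the test after adjustment.

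Single differentially methylated regions (DMRs) were called by comparing logistic models of the reads with and without exposure, at q under 0.01 over all analysed tiles and a difference of at least 10 percentage points. Of the masked tiles, 31 (0.363%) were decreased in EtOH-exposed forebrains, against 1.1% of all tiles, and 10 (0.117%) were increased, against 0.0506%. Weighted to the control levels and read depths of the masked tiles, 0.630% of the unmasked tiles were decreased and 0.0087% increased. At 80% or more in controls, 19 of 8209 masked tiles (0.231%) and 110 of 21154 unmasked tiles (0.520%) were decreased. Only 1 of the 10 increased masked tiles was at this level (0.0122%), and 0 unmasked tiles were increased there. The share of decreased masked tiles was thus below, and that of increased ones above, the share over all tiles, with 31 and 10 tiles behind them. Within the library group, 0.387% of the masked and 0.789% of all tiles were decreased, and the order of the increased ones was turned, with 0.0748 and 0.134%.

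These calls rest on a model that takes no account of the spread between embryos. With an F test that estimates overdispersion for each tile, 0 masked tiles and 0% of all tiles were called, and 620 masked tiles (7.26%) had an unadjusted p under 0.05, against 5.78% of all tiles. With limma, 0 masked tiles and again 0% of all tiles were called, and 564 masked tiles (6.60%) had an unadjusted p under 0.05, against 4.46%. The masked tiles called by the logistic model had a median control level of 78.8% and a median of 165 reads. Only 5 of the 41 were measured in all 22 samples, and 4 had a median word that occurred once.

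In the largest decreases, some embryos were far lower than others of the same condition. These tiles were chosen by this difference, so their values are a description. At chr12:44717501-44717600, 208962 bp from Gm33548, the level was 58.9 to 94.6% (median 65.6%) in 5 Ctrl samples and 2.49 to 90.3% (median 27.8%) in 11 EtOH-exposed samples, 9 of which lay below the lowest Ctrl sample. Samples 4, 5 and 6 were at 12.2, 6.04 and 2.49% and samples 1 and 12 at 82.2 and 90.3%. The median word of this tile occurred 60.5 times in the genome, so its reads may stem from other copies. In the Zpbp intron, at the decreased family 1 tile printed above, 6 Ctrl samples were at 86.4 to 93.9% (median 91.9%) and 15 EtOH-exposed samples at 32.4 to 92.8% (median 77.7%). Zpbp encodes a zona pellucida binding protein of sperm. Here samples 2, 3, 8, 9 and 14 were at 42.4, 47.5, 32.4, 45.6 and 39.1% and the next lowest, sample 11, at 56.5%.

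The same embryos were low at other family 1 tiles among the 5 largest decreases. The Zpbp, Gm40551, Itgbl1 and Gm41932 tiles shared stretches of sequence, in part on the opposite strand. Their median words occurred 2208, 1334, 29 and 144 times in the genome. Their reads may therefore stem from the same copies, and the tiles are not independent. Near Gm40551 (chr12:95585601-95585700), samples 2, 3, 8, 9 and 14 were at 39.4, 47.7, 50, 36.9 and 20%, and Ctrl samples at 82.4 to 96.1% (median 89.5%). In an intron of Itgbl1, an integrin beta-like gene (chr14:123723201-123723300), they were at 33.6, 46.3, 45.0, 25.9 and 59.4%, and Ctrl samples at 84.3 to 99.2% (median 93.8%). Near Gm41932 (chr1:112838701-112838800), samples 2, 8, 9 and 14 were at 55.8, 39.4, 59.5 and 26.6%, while samples 4, 5 and 6 were at 84.8, 92.8 and 89.9%, above the highest Ctrl sample (83.2%). They were not low at every named family 1 tile, but the tile given next was chosen as 1 of the 5 largest increases. Near Gm21054 (chr6:104064501-104064600), samples 2, 9 and 14 were at 81.2, 90.8 and 80.4%, above the Ctrl median of 59.3%. This tile also shared stretches of sequence with the Zpbp and Itgbl1 tiles. Its median word occurred 808 times, so it is not independent of them. Samples 2, 3, 8, 9 and 14 were among the 8 with the smallest read share in masked tiles. Sample 11, with a read share of 3.06%, also lay below the lowest Ctrl sample at the Gm40551, Itgbl1 and Gm41932 tiles, at 65.9, 72.9 and 60%.

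Among the largest increases, 2 tiles were divided by the same embryos in both conditions. Both belonged to family 1 and were nearly the same in sequence. Their median words occurred 68 and 16.5 times in the genome, so their reads may stem from the same copies and the tiles are not independent. Near Gm26354 (chr3:22336201-22336300), Ctrl samples 1 and 2 were at 32.3 and 30.3% and Ctrl samples 3, 4 and 5 at 94.2, 100 and 100%, while EtOH-exposed sample 15 was at 33.3% and the other 7 measured were at 88.9 to 97.6%. Near Sult3a1, a sulfotransferase gene (chr10:33836101-33836200), Ctrl samples 1 and 2 were at 53.4 and 53.3% and EtOH-exposed sample 15 at 52.6%, and all others measured were at 91.3% or more. At the first tile all 8 values of the EtOH group lay within the Ctrl range, and at the next 8 of 9 did and 1 lay below it.

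The increase in the intron of Tek, the gene of the angiopoietin receptor, was spread more evenly (chr4:94817301-94817400). The level was 28.2 to 39.2% (median 34.4%) in 5 Ctrl and 31.1 to 83.9% (median 52.3%) in 14 EtOH-exposed samples, 10 of which lay above the highest Ctrl sample. Samples 4, 5 and 6 were within the Ctrl range here, at 32.9, 31.1 and 35%. The tile belonged to family 10, whose 46 tiles had a median control level of 94.8%. Its median word occurred 702 times in the genome, so its reads may stem from other copies. The other increases, near Gm21054 and Gm41311, were 15.5 and 15.4 points with overlapping groups, and their median words occurred 808 and 9 times.

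**Figure D5:**
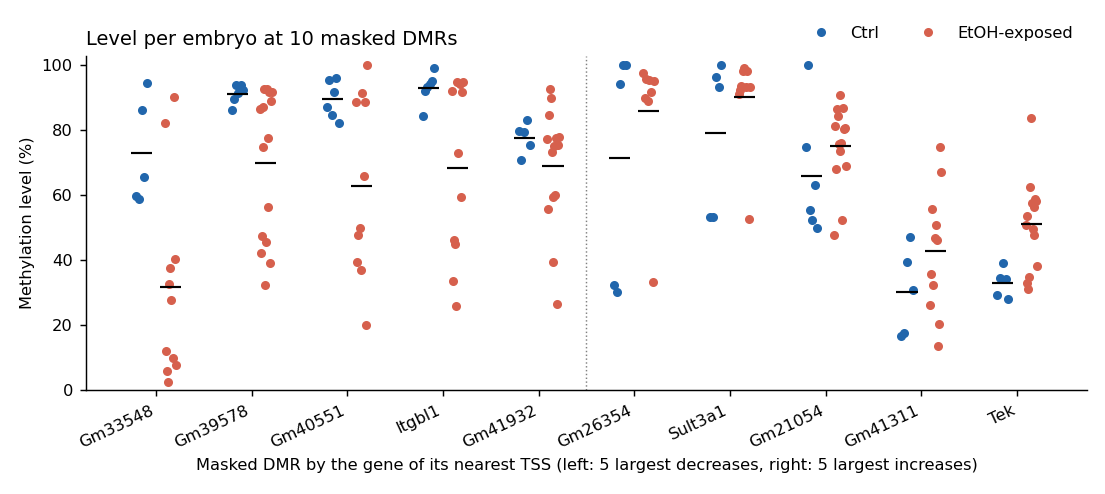
Methylation level (y axis, %) of each embryo with a value at the 5 largest decreases and the 5 largest increases among masked DMRs (x axis, named by the gene of the nearest TSS; Gm39578 is the tile in the Zpbp intron); points are embryos and black lines are means. At the Gm26354 and Sult3a1 tiles, 2 Ctrl samples and 1 EtOH-exposed sample lay well below all others.

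The most deeply read masked tiles were level in both conditions. In the intron of Ang4, an angiogenin gene (chr14:51765601-51765700, family 2), with a median of 9060 reads, the level was 68.3 to 74.3% (median 70.5%) in Ctrl and 67.5 to 76.3% (median 70.5%) in the EtOH group. A family 3 tile on chromosome 1 (48921901 to 48922000), with 8314 reads, was at 85.2 to 92.9% (median 88.5%) and 86.5 to 89.4% (median 88.4%). The family 1 tile printed first, with 4540 reads, was at 95.5 to 98% (median 96.7%) and 95.6 to 97.3% (median 96.5%). At each of these tiles the conditions overlapped. The median words of the last 2 occurred 3248 and 770 times in the genome, so that their reads may stem from many copies. At a family 4 tile 509 bp from the TSS of Mapkapk5, a kinase gene, the level was low in both, at 9.14 to 21.1% (median 16%) in Ctrl and 12.6 to 18.6% (median 15.8%) in the EtOH group.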

How the data were processed

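The rRRBS libraries came from 6 Ctrl and 16 EtOH-exposed forebrains. Per the labels and the study's methods, Trim Galore 0.3.3 was used for trimming, and BSMAP 2.90 for alignment to mm10. The deposited counts give the reads covering each CpG cytosine by strand, with no minimum, and the deposited percent values give the share read as methylated or unmethylated. Methylated reads were taken as count times percent, rounded. All 52719477 autosomal positions, summed over samples, lay at a CpG of GRCm38.

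Strands with at least 10 reads were summed over 100 bp tiles with at least 2 CpGs and at least 5 samples per condition. The mask, TSSs and features came from the RefSeq FASTA and annotation of GRCm38. Copy number was the median count of the tile's 31-base words, and families were built with BLAST 2.17.0 (80% identity over 80 bases; 50 bases for B1_Mus2). The control level was weighted by coverage. Unmasked tiles were weighted to the masked tiles' control levels in 12 bins. Embryo values entered two-sided exact permutation tests (74613 splits), with Benjamini-Hochberg adjustment. For the spread and for values centred on Ctrl means, all splits were used but p is approximate. DMRs used a logistic likelihood-ratio test (q under 0.01, 10 percentage points), with an F test with overdispersion and limma 3.58.1 (R 4.3.3, 0.5 added) as alternatives. Values were computed with scipy 1.17.1, numpy 2.4.6 and pandas 2.3.3 under Python 3.11.15 and drawn with matplotlib 3.10.9, and the tests were checked on simulated data.

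Tiles were named by rule: the 5 largest decreases and increases among masked DMRs, the unmethylated tiles farthest from a TSS or with most CpGs, the most deeply read tile of each of the 5 largest families and the 5 deepest methylated tiles within 1 kb of a TSS. The other unmethylated tiles, their neighbours and copies, the tiles with most reads and the read share were added after the values had been seen. The masked tiles, classes and lists were chosen with earlier results of these data known. Other alternatives changed the read minimum, CpG number, samples required, mask limit, weighting, matching and samples left out.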

Additional observations from a re-analysis of the deposited data

Results flagged for a closer look

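A check for a single control embryo far from the other 5 was run on 37 sets of control values, where chance flags about 1 in 20. Ctrl sample 6 lay 0.934 percentage points from the control median of the masked level, while the other Ctrl samples lay within 0.31. At the Pik3c3 tile 18 bp from the TSS, the highest Ctrl sample was at 3.8%, far from the others on the scale of their range. Both stood out within a narrow spread.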

How the results depend on the processing

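The number of masked tiles was 14705 with at least 50 lower-case bases, 4886 with 20 reads per strand, 5433 with 3 CpGs and 19988 with 3 samples per condition. The difference in masked level kept its direction in all alternatives. Its p passed 0.05 over every analysed masked tile (−1.47 percentage points, p = 0.0443, permutation over all splits). That value was centred on Ctrl means, so its p is approximate. It ran from −1.62 to −1.22 with 1 sample left out, and was −0.75 (p = 0.209) without EtOH-exposed samples 4, 5 and 6, −0.48 (p = 0.272) also without sample 14 and −0.14 (p = 0.759) within the library group. The difference in spread ran from 0.98 to 1.32 with 1 sample left out, and its unadjusted p was above 0.05 without Ctrl sample 1 or EtOH-exposed sample 2, 4, 5, 6, 8, 9 or 14. It was 0.60 without samples 4, 5 and 6, 0.11 within the library group and 1.25 (permutation over all splits, approximate p = 0.00595) when measured from the group mean. The masked minus unmasked difference reversed without CCGG sites (−0.20) and with tiles left out whose median word was repeated (−0.17). The causes were not tested.

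Decreased and increased DMRs numbered 31 and 10, against 0 and 0 by the F test and by limma, 4 and 1 at 20 percentage points, 15 and 3 with 20 reads and 18 and 3 without CCGG sites. Decreased DMRs numbered 58 with unweighted means, 82 with 5 reads, 19 without samples 4, 5 and 6 and 16 also without sample 14, which was added after seeing the data. Within the library group 31 were decreased and 6 increased. With 1 sample left out, 25 to 43 were decreased and 8 to 16 increased, with 16 without Ctrl sample 5. In these runs 0.293 to 0.505% of masked and 0.827 to 1.55% of all tiles were decreased. The increased shares were 0.0936 to 0.187% and 0.0375 to 0.0863%, both highest without Ctrl sample 5. Counts over all tiles moved too. Decreased were 0.679% of masked and 1.69% of all tiles with unweighted means, 0.662 and 1.54% with 5 reads and 0.307 and 0.692% with 20 reads. The shares were 0.224 and 0.333% without samples 4, 5 and 6, 0.189 and 0.26% also without sample 14, and 1.66 and 3.4% with the block described next. They were 0.0468 and 0.0872% at 20 percentage points and 0.291 and 0.568% without CCGG sites. Increased were 0.0117% of masked and 0.00174% of all tiles at 20 percentage points. With 20 reads these were 0.0614 and 0.038%, without CCGG sites 0.0484 and 0.0209% and with the block 0.0757 and 0.0458%.

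The replicate numbers did not pair the samples, with correlations of deviations from −0.24 to 0.208 over 6 pairs and none of the 6 highest with its own number. With the replicate block of samples 1 to 6, the masked level changed by −2.86 (p = 0.0312, the smallest that 64 exact sign flips give), the spread by 1.85 (p = 0.125), the unmethylated masked tiles by 0.19, and 132 DMRs were decreased and 6 increased. The same samples without the block, added after seeing the data, gave −2.86 (exact permutation test, p = 0.00433), 0.19, and 132 decreased and 14 increased DMRs. Without the block, 1.59% of masked and 3.42% of all tiles were decreased, and 0.169 and 0.0639% increased. Depth also limits single tiles, with a median of 231 reads.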
